A study of Bos grunniens x Bos taurus and Bos grunniens with 12 samples.

Results

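The miR-30 family was followed in the small RNA of exosomes from yak and Jeryak milk. Its members were the rows named bta-miR-30 with a letter a to f, taken from either arm of the hairpin, and the row with the highest mean was to stand for each letter and arm. This rule gave 7 rows of the 2263 in the table, 6 from the 5p arm and 1 from the 3p arm, with a single row for each letter and arm. The table also held 5 rows named miR-30 after other species (chi for goat, hsa for human), all from the 3p arm, and these are described beside the members. Milk exosomes were sequenced in 12 libraries in 4 groups of 3: Jeryak in December (Dec_JY), yak in December (Dec_Y), Jeryak in June (Jun_JY) and yak in June (Jun_Y). The Jeryak is the hybrid of yak (Bos grunniens) and Jersey cattle (Bos taurus), and the milk came from lactating animals of 4 to 5 years. No treatment was given. The milk that was sequenced came from 3 yaks and 3 Jeryaks. The sources used here do not say that the animals of June were those of December, or tie a library to an animal, so the libraries were not paired and the p-values measure only the spread between these libraries.

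A microRNA guides the silencing complex to messenger RNAs, mainly through its seed, the stretch near its 5′ end that pairs with the target, and each hairpin can give a mature strand from its 5p and from its 3p arm. The miR-30 family is defined by a shared 5p seed and is made in many epithelia. Family members have been tied to fat cell differentiation in human cells, and an excess of miR-30b in the mammary gland of transgenic mice impaired lactation. In human and mouse, miR-30b and miR-30d are transcribed from one cluster, miR-30a lies beside one copy of miR-30c, and miR-30e lies with the other copy inside an intron of NFYC, a gene for a subunit of a CCAAT-binding factor. The places of these genes in the genomes of yak and cattle were not looked up here.

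The 6 mature 5p sequences are shown because they define the family and show how alike its members are. Each is written 5′ to 3′ with the seed, bases 2 to 8, in capitals, and with T for U as in the table.
bta-miR-30a-5p: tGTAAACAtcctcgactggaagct
bta-miR-30d_R-3: tGTAAACAtccccgactggaa
bta-miR-30e-5p: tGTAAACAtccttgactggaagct
bta-miR-30b-5p: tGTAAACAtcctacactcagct
bta-miR-30c_R+1: tGTAAACAtcctacactctcagct
bta-miR-30f: tGTAAACAccctacactctcagct
The first 8 bases were identical in all 6, and the seed GTAAACA was found in no other row of the 2263. In a row's name R and L give bases added or missing at the 3′ and 5′ end against the miRBase entry. The letters ss mark a substitution against that entry, followed by its position and the bases. Behind the seed the sequences fell into 2 sets. Counted from 1 at the 5′ end, bta-miR-30d_R-3 differed from bta-miR-30a-5p only by T12C over the 21 bases compared, and bta-miR-30e-5p only by C13T. The rows bta-miR-30c_R+1 and bta-miR-30f differed from each other only by T9C, whereas bta-miR-30c_R+1 had 5 differences from bta-miR-30a-5p.

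The 3p sequences carry other seeds, and they are shown because these seeds also set letters a, d and e apart from b, c and f.
bta-miR-30b-3p_R-1: cTGGGAGGtggatgtttact
chi-miR-30f-3p_R-2_1ss8GA: cTGGGAGAaggctgtttact
hsa-miR-30c-1-3p_R-2: cTGGGAGAgggttgtttact
chi-miR-30a-3p: cTTTCAGTcggatgtttgcag
chi-miR-30d-3p_L+1: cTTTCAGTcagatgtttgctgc
chi-miR-30e-3p_R+1: cTTTCAGTcggatgtttacagt
The rows of letters a, d and e shared TTTCAGT, which no other row of the table had. The 3p rows of letters c and f shared TGGGAGA with 3 predicted candidates, and bta-miR-30b-3p_R-1 alone had TGGGAGG. By its name the f row has A in place of G at base 8, the last base of the seed. The goat entry thus has another seed than the one shown, and the row is tied to letter f by its name alone.

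Values are norm values, the copy number of a row multiplied by 1 correction factor per library. Their sums were 588715 to 816871 per library. A single copy was worth a norm value of 0.127 to 0.269 in December Jeryak libraries and 0.730 to 3.30 in those of the other groups, so rows of low abundance were counted with least error in December Jeryak milk. Replicates of a December group had Pearson correlations of 0.941 to 0.974 across rows, against 0.766 to 0.813 for replicates of a June group. The labels give no batch of library making or sequencing, and one that went with the month cannot be told apart from it. Milk was checked by bta rows of miRNAs typical of mammary epithelium and milk. The 8 rows of that list were present in every group and summed to 126132 to 187877 in December Jeryak, 136219 to 162689 in December yak, 147444 to 195570 in Jeryak milk of June and 132728 to 205733 in June yak milk. The 5 rows of white blood cell miRNAs summed to 720.2 to 7930 in December Jeryak and 446.2 to 674.7 in December yak milk, against 88.8 to 233 in Jeryak milk of June and 110.0 to 314 in June yak milk. In the first of these groups replicate 2 stood apart at 7930, with 720.2 and 753 in the other libraries. In each June group 2 of the 5 rows were at 0 in all 3 libraries. The sums were thus higher in December in both breeds, and the part of white blood cells in the month differences below was not tested. The 3 rows of red blood cell miRNAs summed to 15.4 to 22.6, 39.2 to 173, 46.9 to 185 and 104.0 to 781 in the same order of groups. In each December group 1 of them was at 0 in all 3 libraries. The 7 rows of smooth muscle, stroma and endothelium summed to 343.6 to 2710, 754.0 to 2422, 242.7 to 389 and 273.0 to 1059. Of these, 1 was at 0 in all June Jeryak libraries and 3 were at 0 in all June yak libraries.

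The 7 members together held 18.1 ± 4.24% of all norm values in December Jeryak, 23.1 ± 1.00% in December yak, 15.5 ± 5.53% in Jeryak milk of June and 21.3 ± 2.25% in June yak milk (SD, n = 3). The lowest share was 9.17%, in June Jeryak replicate 2, and the highest 24.1%, in December yak replicate 1. Nearly all of it came from the 5p arm, and most of it from bta-miR-30a-5p, the row with the highest mean of the whole table. It ranked 1 in 9 of the 12 libraries and never below 3. Of the summed 5p norm value it held 71.6 to 84.1%. The other 5p rows followed with ranks by mean of 11 for bta-miR-30d_R-3, 19 for bta-miR-30e-5p, 29 for bta-miR-30f, 35 for bta-miR-30b-5p and 69 for bta-miR-30c_R+1, and bta-miR-30b-3p_R-1 came at 484. Norm values are not scaled for length, and these rows differ only between 20 and 24 nt.

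**Figure D1:**
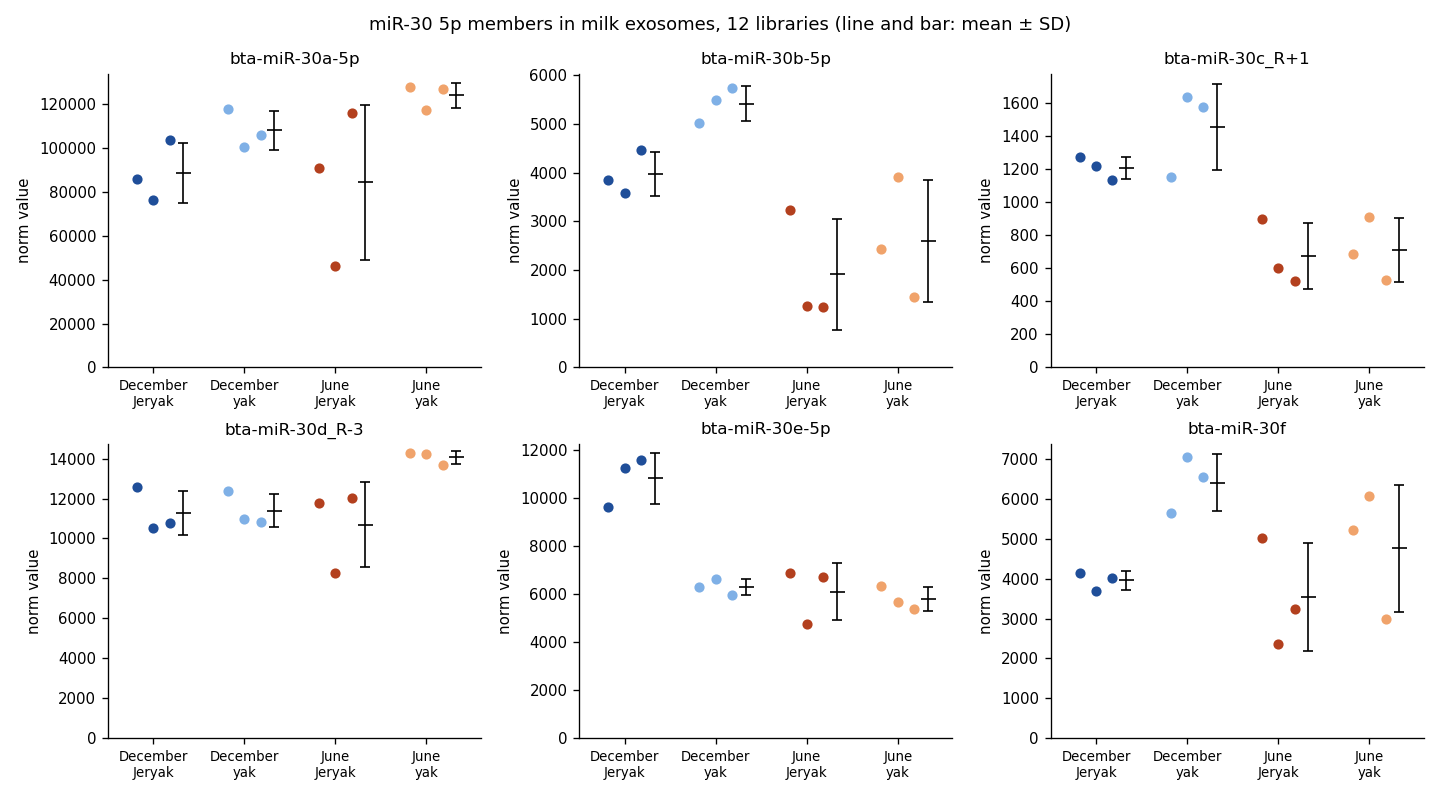
Norm value of the 6 miR-30 5p members (vertical axes, each from 0) in the 12 libraries, as 1 point per library, with the mean ± SD of the 3 libraries of a group beside the points. bta-miR-30e-5p stood highest in the 3 December Jeryak libraries (9598 to 11569), while bta-miR-30b-5p and bta-miR-30c_R+1 were higher in December than in June libraries of the same breed.

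Neighbours in this order were not apart in every group. bta-miR-30a-5p was above bta-miR-30d_R-3, and bta-miR-30b-5p above bta-miR-30c_R+1, in 12 of 12 libraries. bta-miR-30d_R-3 was above bta-miR-30e-5p in all libraries but those of December Jeryak milk, where it was higher in 1 of 3 and the means, 11286 ± 1111 and 10804 ± 1057, differed by less than the SD (n = 3). bta-miR-30e-5p was above bta-miR-30f in 3 of 3 December Jeryak and 3 of 3 June Jeryak libraries, but in 1 of 3 December yak and 2 of 3 June yak libraries. bta-miR-30f was above bta-miR-30b-5p in 11 of 12.

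**Figure D2:**
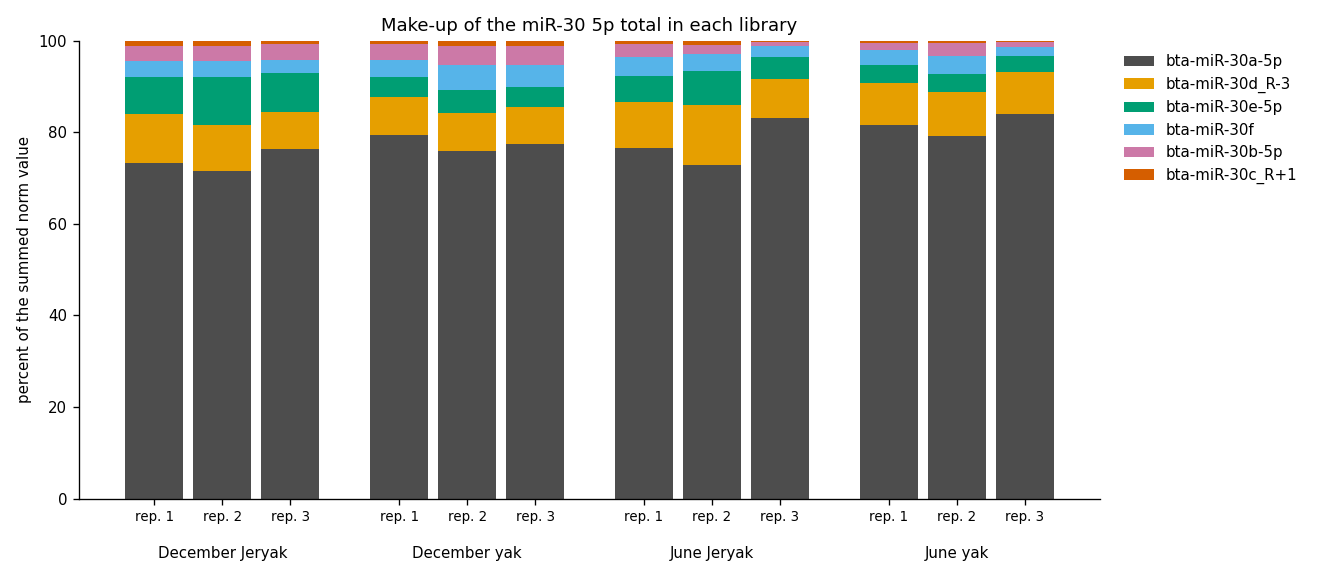
Make-up of the summed miR-30 5p norm value, in percent (vertical axis), with 1 bar for each of the 12 libraries and 1 colour for each member. bta-miR-30a-5p made up 71.6 to 84.1% in every library, and the band of bta-miR-30e-5p was widest in December Jeryak milk (8.18 to 10.6%).

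Copies can be read back from the steps between low values, and these show how far a row was counted on its own. In its poorest library bta-miR-30a-5p had 21939 copies, bta-miR-30d_R-3 had 3925, bta-miR-30e-5p 1924, bta-miR-30f 1115, bta-miR-30b-5p 504 and bta-miR-30c_R+1 197. Copies were whole, within 0.01, in 10 of 12 libraries for bta-miR-30e-5p, 9 for bta-miR-30d_R-3 and 7 for bta-miR-30a-5p. They were whole in only 4 of 12 for bta-miR-30b-5p and in 2 of 12 for each of bta-miR-30c_R+1 and bta-miR-30f. Fractions of a copy may mean that reads matching more than 1 row were divided between rows. The sources used here give no such rule, so the levels of miR-30b, miR-30c and miR-30f are reported as uncertain as separate quantities.

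The first question was whether the month changed the family in Jeryak milk. The norm values were higher in December for miR-30e, miR-30b and miR-30c, and no member passed as lower. The most abundant members, miR-30a and miR-30d, overlapped between the months. In limma on log2(norm value + 1), 3 of the 7 members passed an adjusted p of 0.05, each of them higher in December, where 40.8% of the 620 tested rows passed and 11.9% passed with a higher value in December. Among the 251 tested bta rows these shares were 25.5% and 19.9%. The median log2 difference was 0.23 over the 7 members, against −0.61 over all tested rows and 0.56 over the bta rows.

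bta-miR-30e-5p had norm values of 9598, 11245 and 11569 in December Jeryak milk, against 6866, 4735 and 6687 in June Jeryak milk. The groups did not overlap, and the lowest December library lay above the highest June library. The difference was 0.84 on the log2 scale (standard error 0.24, adjusted p = 0.013), a fold of 1.79 with a 95% interval of 1.25 to 2.57. It was 0.81 with an adjusted p of 0.039 without December replicate 2, the library with the high white blood cell sum, and it passed when any one of the 12 libraries was left out. In goat mammary epithelial cells miR-30e-5p has been tied to fatty acid metabolism.

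bta-miR-30b-5p had 3852, 3589 and 4465 in December Jeryak milk, against 3224, 1265 and 1244 in June Jeryak milk, a log2 difference of 1.20 (standard error 0.42, adjusted p = 0.035). bta-miR-30c_R+1 had 1268, 1214 and 1132 in December, against 899, 603 and 519 in June, a log2 difference of 0.88 (standard error 0.32, adjusted p = 0.047). For both, the December libraries lay close together, and June replicate 1 was nearest to them. Both calls rested on single libraries: without any one of the December Jeryak libraries, or without June Jeryak replicate 2 or 3, only bta-miR-30e-5p passed, and bta-miR-30c_R+1 also missed when December yak replicate 1, 2 or 3 was left out. Over the libraries left out, the adjusted p ran from 0.0041 to 0.136 for bta-miR-30b-5p and from 0.017 to 0.13 for bta-miR-30c_R+1.

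The call also depended on the scaling. When log2 values were shifted so that the bta rows had the same median in every library, all differences of this comparison dropped by 0.70, bta-miR-30e-5p came to 0.14 (adjusted p = 0.756), and none of the 7 members passed. Under that scaling 11.9% of the calls over all rows were higher in December, against 29.2% with the norm values as deposited. Relative to the median bta row, at 0.56, miR-30b, miR-30c and miR-30e were thus still higher and miR-30a, miR-30d and miR-30f lower, as values without a test.

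bta-miR-30a-5p had 85936, 76280 and 103481 in December Jeryak milk, against 90768, 46188 and 116045 in June Jeryak milk. June replicates 2 and 3 were the lowest and the highest of the 6, so the December libraries lay between them. The log2 difference was 0.16 with a 95% interval of −0.50 to 0.82. bta-miR-30d_R-3 had 12561, 10525 and 10771 in December, against 11798, 8263 and 12026 in June, with a difference of 0.09 (−0.41 to 0.60). bta-miR-30f had 4148, 3689 and 4025 in December, against 5013, 2370 and 3243 in June, with a difference of 0.23 (−0.50 to 0.95). June replicate 2 was the lowest of the 6 libraries for all 3 of these rows.

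**Figure D3:**
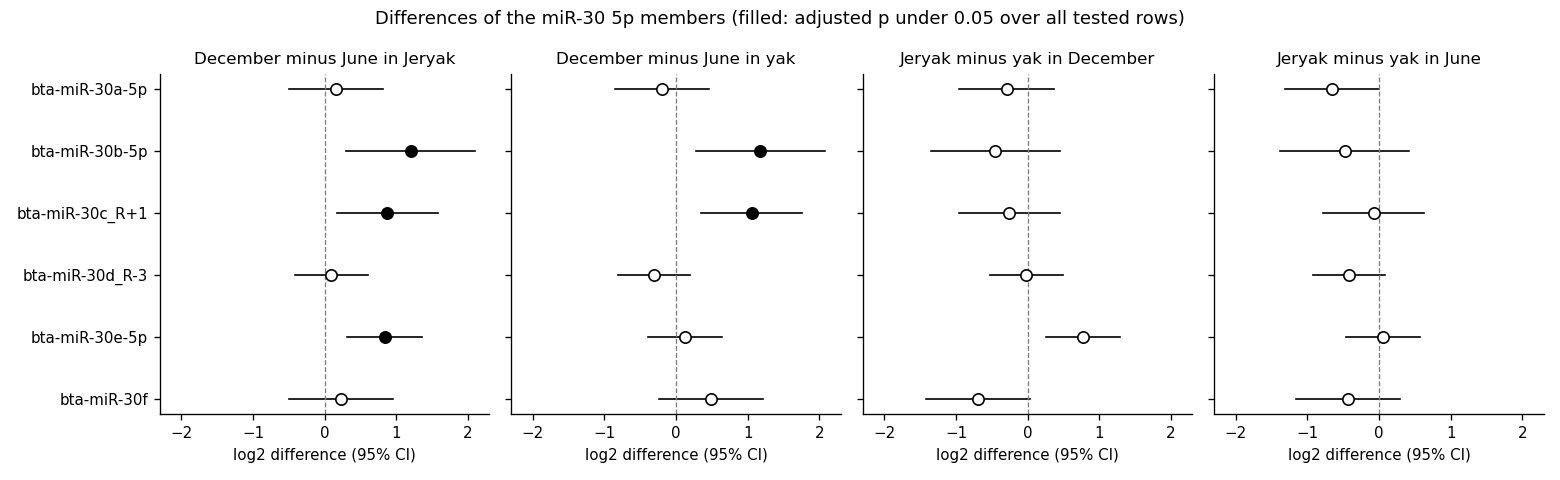
Log2 difference (horizontal axes) of the 6 miR-30 5p members in the 4 comparisons, with 95% confidence intervals, from limma on log2(norm value + 1). Filled points, with an adjusted p under 0.05 over all 620 tested rows, are bta-miR-30b-5p, bta-miR-30c_R+1 and bta-miR-30e-5p for the months in Jeryak and the first 2 of these for the months in yak.

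The same question in yak milk gave 2 of the 7 members, bta-miR-30b-5p and bta-miR-30c_R+1, both higher in December, where 34% of all tested rows passed and 11.5% passed with a higher value in December (21.5% and 14.3% of the bta rows). bta-miR-30e-5p did not show the difference that it had in Jeryak milk. The median log2 difference was 0.12 over the members, −0.59 over all tested rows and 0.20 over the bta rows.

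bta-miR-30b-5p had 5019, 5497 and 5735 in December yak milk, against 2423, 3915 and 1446 in June yak milk, a log2 difference of 1.18 (standard error 0.42, adjusted p = 0.044). bta-miR-30c_R+1 had 1153, 1631 and 1573 in December, against 686, 910 and 529 in June, a log2 difference of 1.05 (standard error 0.32, adjusted p = 0.024). Neither overlapped between the months, and June replicate 2 was the nearest to December in both. bta-miR-30c_R+1 missed without December yak replicate 2 or 3 or June yak replicate 1 or 3, and bta-miR-30b-5p missed in all but 2 of the 12 fits with 1 library left out, those without June Jeryak replicate 1 or June yak replicate 2 (adjusted p of 0.016 to 0.154 over the 12). Without June yak replicate 3, bta-miR-30b-3p_R-1 passed as lower in December (−3.36, adjusted p = 0.016).

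bta-miR-30e-5p had 6307, 6631 and 5964 in December yak milk, against 6349, 5660 and 5377 in June yak milk, with a log2 difference of 0.12 (95% interval −0.40 to 0.64). bta-miR-30d_R-3 had 12362, 10990 and 10841 in December, against 14301, 14228 and 13701 in June. All 3 December libraries were below the June libraries, but the log2 difference of −0.31 (−0.81 to 0.20) did not pass (adjusted p = 0.328). bta-miR-30a-5p had 117572, 100519 and 105742 in December, against 127733, 117327 and 126728 in June, and the groups overlapped by a single library (−0.20, interval −0.86 to 0.46). bta-miR-30f had 5643, 7041 and 6545 in December, against 5217, 6061 and 2992 in June (0.49, interval −0.24 to 1.21). With the bta rows at the same median, all differences dropped by 0.65, only bta-miR-30d_R-3 passed, as lower in December (−0.95, adjusted p = 0.0496), and 20.2% of the calls over all rows were higher in December, against 33.6% as deposited.

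Counting members whose groups did not overlap gave a like picture. In Jeryak milk 3 members lay above June in December (bta-miR-30b-5p, bta-miR-30c_R+1 and bta-miR-30e-5p) and 1 below (bta-miR-30b-3p_R-1), where 46.9% of all tested rows did not overlap. In yak milk 2 lay above and 1 below, where 42.9% did not overlap. These counts are near the shares of the whole table and are no result about the members.

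Breed was compared within each month. In December the clearest difference was again in bta-miR-30e-5p, at 9598, 11245 and 11569 in Jeryak against 6307, 6631 and 5964 in yak milk. The groups lay well apart, with a log2 difference of 0.77 (standard error 0.24, 95% interval 0.25 to 1.30), a fold of 1.71. Its adjusted p was 0.076 in limma, and none of the 7 members passed in this comparison, where 5.97% of all tested rows did. At an unadjusted p under 0.05, which 17.3% of all tested rows had, 2 of 7 members were counted, bta-miR-30e-5p and bta-miR-30b-3p_R-1. By the criteria of the study (an unadjusted p under 0.05 with a log2 fold change of 1 or more in either direction), which 6.56% of the 1189 rows above 0 met, 1 member was counted, bta-miR-30b-3p_R-1. bta-miR-30e-5p passed in a fit of the December libraries alone, with weights per group, with 0.1 added in place of 1, and without June Jeryak replicate 2 (adjusted p = 0.027 without it).

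The log2 differences of the other 5 members of the 5p arm were below 0 in December, and none passed. bta-miR-30f had 4148, 3689 and 4025 in Jeryak, against 5643, 7041 and 6545 in yak milk, with no overlap and a log2 difference of −0.69 (95% interval −1.42 to 0.03). In limma it passed, as lower in Jeryak, with the December libraries alone (adjusted p = 0.031) and with weights per group (adjusted p = 0.014). bta-miR-30b-5p had 3852, 3589 and 4465 in Jeryak, against 5019, 5497 and 5735 in yak milk, again with no overlap (−0.45, interval −1.35 to 0.45). Between breeds in December 2 members lay above and 2 below without overlap, where 25% of all tested rows did not overlap. The intervals were −0.95 to 0.36 for bta-miR-30a-5p, −0.96 to 0.45 for bta-miR-30c_R+1 and −0.52 to 0.49 for bta-miR-30d_R-3. The last of these had nearly equal means, 11286 ± 1111 in Jeryak and 11398 ± 838 in yak milk (SD, n = 3).

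In June none of the 7 members passed between breeds in limma, where 5% of all tested rows did, and none reached an unadjusted p under 0.05, which 19.5% of them had, or met the criteria of the study, which 1.27% of the 1730 rows above 0 met. bta-miR-30a-5p was at 90768, 46188 and 116045 in Jeryak, against 127733, 117327 and 126728 in yak milk. All Jeryak libraries lay below the yak libraries, by a log2 difference of −0.65 (95% interval −1.31 to 0.0026), and the SD was 35370 in Jeryak against 5740 in yak. Without June Jeryak replicate 2, the library at 46188, the difference was −0.27. bta-miR-30d_R-3 likewise lay below without overlap, at 11798, 8263 and 12026 in Jeryak against 14301, 14228 and 13701 in yak milk (−0.42, interval −0.92 to 0.09, and −0.24 without June Jeryak replicate 2). These were the only 2 members without overlap, where 15.3% of all tested rows had none. bta-miR-30e-5p, at 6866, 4735 and 6687 in Jeryak against 6349, 5660 and 5377 in yak milk, had a difference of 0.06 (−0.46 to 0.58).

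Whether the effect of the month differed between breeds was tested as an interaction in the same fit. None of the 7 members passed and none had an unadjusted p under 0.05, while 5.48% of all tested rows passed and 18.4% had such a p. For bta-miR-30e-5p, called between the months in Jeryak milk alone, the month difference was 0.72 larger in Jeryak than in yak milk on the log2 scale (standard error 0.34, 95% interval −0.02 to 1.45, adjusted p = 0.279). A difference in response between the breeds was thus not shown for this row.

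Ratios within a library do not depend on the correction factor. The ratio of bta-miR-30a-5p to bta-miR-30e-5p, which differ by 1 base, was 8.95, 6.78 and 8.94 in December Jeryak milk, 18.6, 15.2 and 17.7 in yak milk of December, 13.2, 9.76 and 17.4 in June Jeryak milk and 20.1, 20.7 and 23.6 in June yak milk. December Jeryak libraries were the lowest of all, below every library of the other groups. The share of bta-miR-30e-5p in the 5p total was 9.09 ± 1.28% in December Jeryak, 4.55 ± 0.41% in December yak, 6.01 ± 1.35% in Jeryak milk of June and 3.81 ± 0.24% in June yak milk (SD, n = 3). The ratio of bta-miR-30d_R-3 to bta-miR-30b-5p, whose genes share a cluster in human and mouse, was 1.89 to 3.26 in the December libraries and 3.63 to 9.67 in the June libraries, with no overlap between the months. By contrast, bta-miR-30a-5p to bta-miR-30d_R-3 stayed between 5.59 and 9.75 in all 12 libraries.

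**Figure D4:**
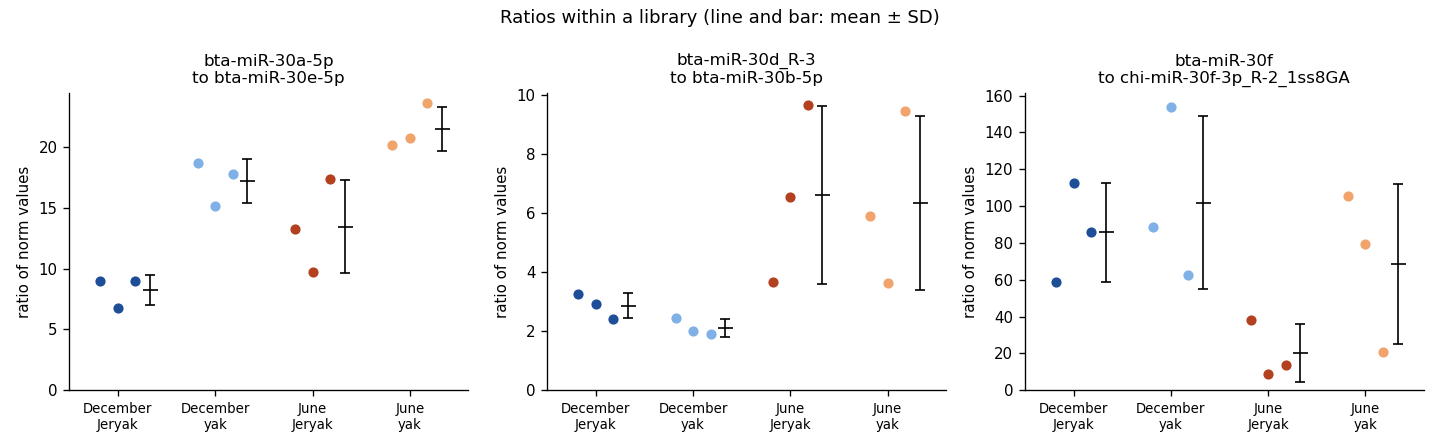
Ratios of norm values within a library (vertical axes, each from 0), as 1 point per library with the mean ± SD of each group. The ratio of miR-30a to miR-30e was lowest in December Jeryak milk (6.78 to 8.95), and that of miR-30d to miR-30b was lower in December than in June. The ratio of miR-30f to the 3p row named for that letter had its lowest group mean in June Jeryak milk (8.72 to 38.2). That range also held June yak replicate 3 (20.6).

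The 3p rows other than chi-miR-30a-3p had lower means than every 5p member and are counted with more error. The only bta row, bta-miR-30b-3p_R-1, had 14.2, 11.2 and 11.3 in December Jeryak, 3.65, 0 and 0 in December yak, 22.2, 50.5 and 14.8 in Jeryak milk of June and 23.1, 11.2 and 0 in June yak milk. Libraries at 0 were all from yak, and a count of 0 there allows, at 3 copies, a norm value of up to 4.90 and 5.59 in the December libraries and 8.05 in the June library. Jeryak was above yak in December without overlap. The fitted log2 difference was 2.98 (95% interval 0.46 to 5.49, adjusted p = 0.185), which depends on the value added before the log. Between the breeds in June it was 2.001 (−0.51 to 4.52), and between the months −1.02 (−3.53 to 1.498) in Jeryak and −1.99 (−4.51 to 0.52) in yak milk.

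Of the 5 rows named after other species 4 were tested. In Jeryak milk 1 of them was lower in December, where 28.9% of all tested rows passed as lower, and in yak milk 1, where 22.6% did. None passed between breeds in limma, where 5.97% of all tested rows did in December and 5% in June. In December chi-miR-30e-3p_R+1 and chi-miR-30d-3p_L+1 had an unadjusted p under 0.05, as did 17.3% of all tested rows. In June chi-miR-30f-3p_R-2_1ss8GA had one, as did 19.5%. None passed in the interaction, where 5.48% did. There chi-miR-30f-3p_R-2_1ss8GA had an unadjusted p under 0.05, as did 18.4% of all tested rows. By the criteria of the study chi-miR-30e-3p_R+1 was counted between breeds in December, where 6.56% of the 1189 rows above 0 were. By the same criteria chi-miR-30d-3p_L+1 was counted between the months in Jeryak milk, where 5.87% of the 2044 rows above 0 were. None was counted between the months in yak milk, where 5.59% of 1109 were.

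chi-miR-30f-3p_R-2_1ss8GA fell in December Jeryak milk, to 70.7, 32.7 and 46.9, against 131, 272 and 239 in June Jeryak milk. The groups did not overlap, and the log2 difference was −2.07 (standard error 0.56, adjusted p = 0.0091), which passed without any one of the libraries but not by the criteria of the study. bta-miR-30f, its 5p partner by name, had no called difference. The ratio of bta-miR-30f to this 3p row was 58.6, 113 and 85.8 in December Jeryak against 38.2, 8.72 and 13.6 in June Jeryak milk. The 3p row has a substitution against the goat entry and shares its seed with the 3p row of letter c, so it may belong to another letter than f. Whether it comes from the same hairpin as bta-miR-30f was not checked, and the ratio is not shown to be one between arms of a hairpin. In yak milk the 3p row had 63.5, 45.8 and 104 in December, against 49.5, 76.4 and 145 in June, and the groups overlapped (−0.28, 95% interval −1.49 to 0.92). Its interaction was −1.79 (−3.50 to −0.09, adjusted p = 0.266).

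chi-miR-30d-3p_L+1 fell in December yak milk, to 3.65, 0 and 0, against 59.4, 41.8 and 16.1 in June yak milk, a fitted log2 difference of −4.41 (standard error 0.90, adjusted p = 0.0017). The libraries at 0 allow, at 3 copies, up to 4.90 and 5.59, so the size depends on the value added before the log, from −2.03 with 10 added to −6.68 with 0.1 added. It passed under both, but not by the criteria of the study. In Jeryak milk it had 9.57, 17.3 and 3.50 in December, against 62.8, 33.7 and 51.8 in June. These groups did not overlap either, but the difference of −2.36 missed (adjusted p = 0.051). It passed in 10 of 22 alternatives, among them the 2 groups alone, no variance trend, the criteria of the study, and the fits without December yak replicate 1 or without any one of the June yak libraries. Whether the breeds differed in this was not shown (interaction 2.05, 95% interval −0.69 to 4.79). The 5p row of the same letter had no called difference between the months in either breed.

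chi-miR-30a-3p and chi-miR-30e-3p_R+1, the 3p rows with the highest means, had no called difference. chi-miR-30a-3p had 999, 995 and 935 in December Jeryak, 1700, 997 and 1349 in December yak, 1521, 1078 and 1468 in Jeryak milk of June and 2010, 1911 and 1114 in June yak milk. It was tightest in December Jeryak milk, where it was also below every June Jeryak library. chi-miR-30e-3p_R+1 had 482, 347 and 320 in December Jeryak, 196, 96.4 and 155 in December yak, 353, 223 and 111 in Jeryak milk of June and 284, 272 and 93.9 in June yak milk. As for its 5p partner, December Jeryak was above December yak milk without overlap (1.39, 95% interval 0.21 to 2.57, adjusted p = 0.186). hsa-miR-30c-1-3p_R-2 was too low to be tested, with 6.38, 2.67 and 5.39 in December Jeryak, 18.5, 21.1 and 0 in June Jeryak and 0 in all 6 yak libraries.

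**Figure D5:**
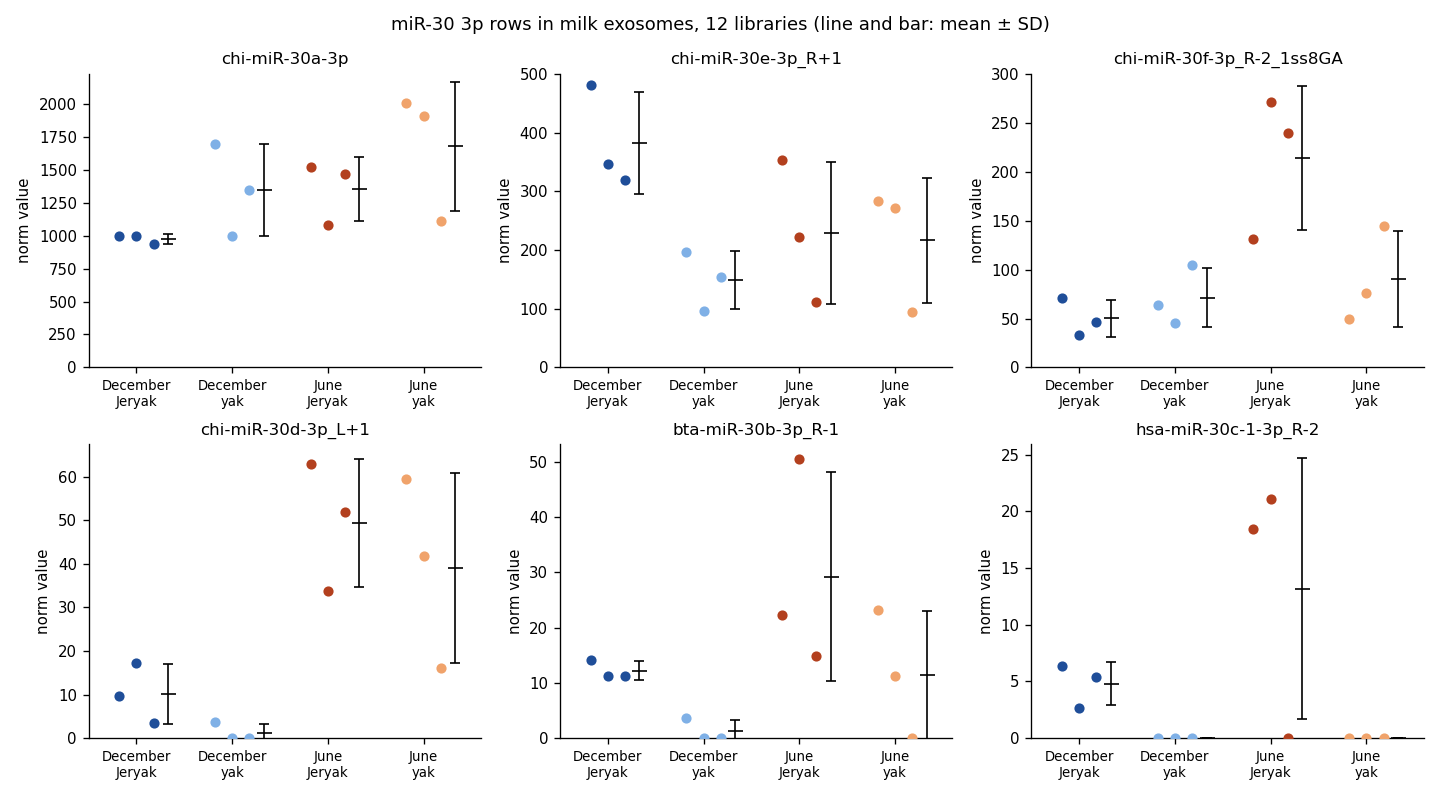
Norm value of the 6 miR-30 3p rows (vertical axes, each from 0) in the 12 libraries, as 1 point per library with the mean ± SD of each group. chi-miR-30f-3p_R-2_1ss8GA was highest in June Jeryak milk (131 to 272), and chi-miR-30d-3p_L+1 was at 0 in 2 of the 3 December yak libraries.

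Across the 12 libraries, on the log2 scale, the members did not vary as one. These correlations are a description over libraries that share their groups and, for near-identical sequences, possibly some reads. bta-miR-30a-5p and bta-miR-30d_R-3 had a Pearson r of 0.85, but bta-miR-30e-5p, 1 base apart from the first and 2 from the second, had −0.01 and −0.06 with them. bta-miR-30b-5p had 0.94 with bta-miR-30c_R+1 and 0.83 with bta-miR-30f, and bta-miR-30c_R+1 had 0.70 with bta-miR-30f. With bta-miR-30d_R-3, its neighbour in the cluster of human and mouse, bta-miR-30b-5p had only 0.08.

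Of the 434 tested rows with a miRBase name outside the family, those most like bta-miR-30a-5p over the 12 libraries were ssc-miR-664-5p_R-1_1ss14GA (r = 0.82), bta-miR-141_R-1 (0.78) and bta-mir-7858-p5 (0.76). The rows nearest to bta-miR-30d_R-3 were bta-miR-1468 (0.84), bta-miR-141_R-1 (0.79) and bta-miR-2284j_L-1 (0.74), so that miR-141, a miRNA of the epithelial miR-200 family, stood in both sets. For bta-miR-30e-5p they were bta-miR-11975_R+1 (0.86), hsa-miR-339-5p_R-1_1ss22CT (0.84) and bta-miR-19b_1ss11CT (0.83), none of which was in the other sets. However, bta-miR-11975_R+1 had a mean norm value of only 3.75 over the 12 libraries, where a single copy was worth up to 3.30, so its likeness is uncertain.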

How the data were processed

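Small RNA of milk exosomes was sequenced by the authors (TruSeq Small RNA, single-end), and reads of 18 to 26 nt were matched with ACGT101-miR to miRBase hairpins, first bovine and then those from other species, allowing 1 mismatch and varying ends. The deposited signal is the norm value, in which the copy number was multiplied by 1 regression-based factor per library. Between 73.7 and 85.9% of the values of a library were whole copies, so no count test was used.

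Rows that reached a norm value of 10 in 3 or more of the 12 libraries (620, all 7 members among them) were tested on log2(norm value + 1) with limma 3.58.1 in R 4.3.3, two-sided, with a variance trend, 1 mean per group and Benjamini-Hochberg adjustment over all 620. The script was first tested on simulated data. Differences are December minus June and Jeryak minus yak, whereas the study sets June against December. Tables were handled with Python 3.11.15 and pandas 2.3.3. Members, marker lists and tests were chosen with earlier results of these data known. Named were all bta rows, up to 4 rows of other species with the highest mean (the remaining untested one was added for completeness), and the 3 rows most like miR-30a, miR-30d and miR-30e each. No bta row was found for miR-223, a white blood cell marker, or for miR-214, of the list for smooth muscle, stroma and endothelium, so the sums do not include them. The result of 1 line of the table is left out. Other added values (10 and 0.1), no minimum, other scalings, the 2 groups alone, other variance models, the criteria of the study, a replicate block and leaving out each library were tried.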

Additional observations from a re-analysis of the deposited data

How the results depend on the processing

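Of 756 values of members under an alternative, 694 kept their side of the threshold, 52 lost a call, 10 gained one and none of the called values changed sign. For the rows of other species the numbers were 416 of 432, 2 and 14. Members that passed between the months in Jeryak milk numbered 3 as reported, 1 with no minimum norm value, 1 with only the 2 groups compared, 0 with the same median of bta rows, 0 with no variance trend and 0 by the criteria of the study, and 1 to 3 with 1 library left out. In yak milk the number was 2 as reported, 0 with no minimum, 1 with the same median of bta rows and 1 with only the 2 groups compared. It was 0 with no variance trend, 1 with weights per group, and 0 to 2 with 1 library left out. By the criteria of the study it was again 2, where 5.59% of the 1109 rows above 0 were counted. Between breeds in December it was 0 as reported, 1 with 0.1 added, 2 with only the 2 groups compared, 3 with weights per group, 1 by the criteria of the study, and 0 to 1 with 1 library left out. Between breeds in June and for the interaction it was 0 under every alternative run. The fit of bta-miR-30e-5p between the months in Jeryak milk lost its call in 3 of 22 alternatives, with the same bta median, no variance trend and the criteria of the study. The causes were not tested, other than that the bta scaling lowers all month differences by construction. The sum of rows per letter and arm could not be run, since each had 1 row.

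Same-numbered libraries did not deviate together (correlations of −0.06 to 0.14), so the numbers were not taken as pairs. With the replicate block only bta-miR-30c_R+1 in Jeryak milk lost its call (adjusted p = 0.063), which left 2 members there, and 2 passed in yak milk and 0 between breeds. The low copy numbers of the 3p rows other than chi-miR-30a-3p limit what can be said of them.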
